A study of Mus musculus with 16 samples.

Results

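The T cell receptors of liver tumour infiltrates were compared between mice with and without Matr3 in their T cells, 5 days after the tumour was seeded. The cells were the barcodes of 4 single-cell receptor libraries that were called cells and carried a productive, high-confidence chain. They numbered 2370 of the 5908 such cells in the 8 receptor libraries of a series of 16 samples. In the KO group (CD4creMatr3fl/fl, 2 libraries) both Matr3 alleles were floxed, and in the CON group (CD4creMatr3WT/WT, 2 libraries) both were intact. Both groups carried the Cre recombinase driven by the Cd4 promoter, so a floxed allele is a target in any T cell that has passed through the CD4-expressing stage of the thymus, including later CD8 T cells and natural killer T cells. All mice were C57BL/6 animals that bore a tumour of Hepa1-6, a hepatoma cell line of the mouse, in the left lobe of the liver, and the sampled cells are labelled as infiltrating the tumour. Whether replicate libraries stem from different mice is not given in the labels. The p-values therefore measure only the spread between libraries, which may be technical.

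Matrin 3, the product of Matr3, is a protein of the nuclear matrix that binds RNA and DNA. An alpha-beta T cell receptor is assembled in the thymus by joining V and J segments for the alpha chain (TRA) and V, D and J segments for the beta chain (TRB). The joint forms the CDR3, the loop that contacts the peptide or lipid, and T cells that descend from 1 parent share it, so that repeated pairs of chains count the cells of a clone. Invariant natural killer T (iNKT) cells, which are abundant in mouse liver, carry a nearly fixed alpha chain of TRAV11 joined to TRAJ18, paired mostly with beta chains of the TRBV13 family, TRBV29 or TRBV1, and recognise lipids presented by CD1d.

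The 4 libraries held 598 and 742 cells in CON and 556 and 474 in KO, given here and below for replicates 1 and 2 in that order. A TRA chain was found in 463 and 615 CON cells and 422 and 388 KO cells, a TRB chain in 587 and 735 against 550 and 462, and both in 452 and 608 against 416 and 376. Each library held 7683 to 15674 UMIs (unique molecular identifiers, which count captured transcripts) on productive chains, with the most in CON replicate 2. That library stood apart in number of cells, in UMIs and in clone sizes. Most values are given by library, and some results that rest on it are also given without it. Every cell had a productive TRA or TRB chain, because cells were selected by it. No productive, high-confidence gamma or delta chain was listed in called cells, and no immunoglobulin contig was listed. Other delta chain contigs in called cells numbered 4 and 4 in CON and 2 and 6 in KO. These numbers do not show that gamma delta T cells or B cells were absent from the tissue. The alpha chain of MAIT cells (TRAV1 with TRAJ33) was in at most 1 cell of any library. CON replicate 1 had 0, which allows a share of up to 0.648% of its TRA cells. These files hold receptor contigs only, so neither the level of Matr3 nor CD4 or CD8 identity could be checked. The CON libraries shared 1 cell barcode with each other and CON replicate 2 shared 1 with KO replicate 2, in neither case with the same TRB chain.

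The sequences of the most expanded clones are shown because several pairing results below rest on them. There were 5 clones of 5 or more cells, 4 in CON replicate 2 and 1 in CON replicate 1. The CDR3 nucleotides of these 5 clones, and of the most frequent clone of each KO library, are printed from the deposited contigs, 5′ to 3′. Capitals mark the junction, defined as the bases outside the start shared by at least 50% of the distinct CDR3s of the same V segment and the end shared by at least 50% of those of the same J segment.
CON replicate 1, TRAV5-4 TRAJ5: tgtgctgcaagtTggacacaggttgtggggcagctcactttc
CON replicate 1, TRBV19 TRBJ2-7: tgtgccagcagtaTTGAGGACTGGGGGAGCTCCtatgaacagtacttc
CON replicate 2, TRAV9-1 TRAJ22: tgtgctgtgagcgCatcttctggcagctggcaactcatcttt
CON replicate 2, TRBV26 TRBJ1-2: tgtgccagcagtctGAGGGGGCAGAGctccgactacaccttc
CON replicate 2, TRAV8-2 TRAJ23: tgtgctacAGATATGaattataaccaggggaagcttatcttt
CON replicate 2, TRBV17 TRBJ1-2: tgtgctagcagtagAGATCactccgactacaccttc
CON replicate 2, TRAV12-2 TRAJ22: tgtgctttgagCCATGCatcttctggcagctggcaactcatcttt
CON replicate 2, TRBV3 TRBJ1-4: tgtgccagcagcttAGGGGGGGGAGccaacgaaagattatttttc
CON replicate 2, TRAV3-3 TRAJ12: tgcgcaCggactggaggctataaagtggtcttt
CON replicate 2, TRBV12-2 TRBJ2-1: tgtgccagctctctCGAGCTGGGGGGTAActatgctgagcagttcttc
KO replicate 1, TRAV6-6 TRAJ40: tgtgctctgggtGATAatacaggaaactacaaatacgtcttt
KO replicate 1, TRBV1 TRBJ2-7: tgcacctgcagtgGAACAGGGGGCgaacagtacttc
KO replicate 2, TRAV5-4 TRAJ13: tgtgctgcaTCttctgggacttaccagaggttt
KO replicate 2, TRBV13-3 TRBJ2-7: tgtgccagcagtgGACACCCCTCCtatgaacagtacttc

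The first pair of chains was found in 10 cells of CON replicate 1, or 2.21% of its paired cells (95% Wilson interval 1.21 to 4.02%). The next 4 pairs were found in 15, 8, 7 and 5 cells of CON replicate 2, or 2.47, 1.32, 1.15 and 0.822% of its paired cells. The most frequent clone of each KO library held 3 cells, or 0.721 and 0.798%. None of these 7 clones had the iNKT-type alpha chain, and none was found in any of the other 7 receptor libraries, those of day 14 included. The junctions were longer in TRB than in TRA for 6 of the 7 pairs. The exception was the TRAV8-2 pair, with 7 capital bases in TRA and 5 in TRB.

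Clones of more than 1 cell were uncommon in all 4 libraries and most frequent in CON replicate 2. A clonotype was the same V, J and CDR3 nucleotides of both chains, and an expanded clonotype held at least 2 cells. There were 5 and 27 expanded clonotypes with 20 and 89 cells in CON, and 8 and 4 with 17 and 9 cells in KO. These were 4.42 and 14.6% of paired cells in CON and 4.09 and 2.39% in KO. The Wilson interval of CON replicate 2, 12.1 to 17.7%, lay above the other 3 (together 1.26 to 6.74%), which overlapped one another. These intervals take cells as independent, which cells of a clone are not, so they are too narrow. The shares here are also not at a common depth, and CON replicate 2 had the most paired cells. Singletons were 432 of 437 clonotypes in CON replicate 1, 519 of 546 in CON replicate 2, 399 of 407 in KO replicate 1 and 367 of 371 in KO replicate 2.

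**Figure D1:**
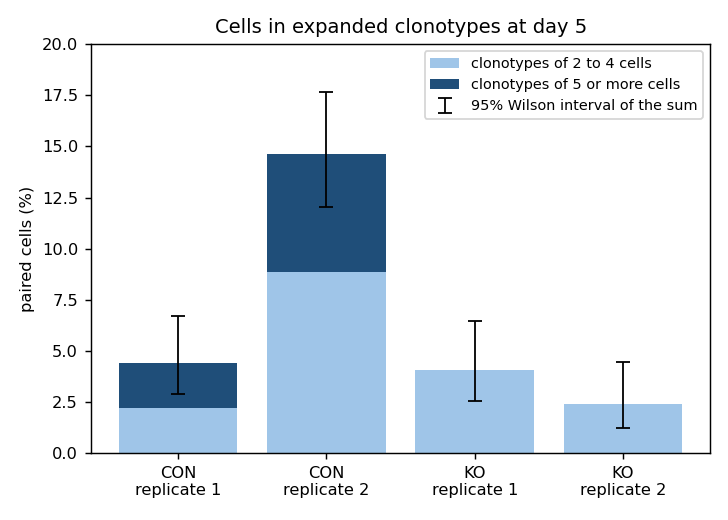
Percent of paired cells in clonotypes of 2 to 4 cells (light) and of 5 or more cells (dark) in each day 5 library, stacked, with the 95% Wilson interval of the sum. The interval takes cells as independent, and the shares are not at a common depth. CON replicate 2 reaches 14.6%, the other 3 libraries lie between 2.39% and 4.42%, and the dark part is present in both CON libraries and 0 in both KO libraries.

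After subsampling each library to 376 paired cells, the number in the smallest, the expanded share was 4.21 and 12.04% in CON and 3.77 and 2.39% in KO. The groups did not overlap, but CON replicate 1 was closer to both KO libraries than to CON replicate 2. The KO minus CON difference was -5.04 percentage points, -1.13 without CON replicate 2 and -8.96 without CON replicate 1. The exact two-sided permutation test gave p = 0.333, the smallest that 2 against 2 libraries allow, and 0.944 after adjustment over the 17 measures compared in this way, so no such measure could pass. The groups overlapped when only chains of 2 or more UMIs were used (3.33% in CON replicate 1 and 4.21% in KO replicate 1) and with the authors' own clonotype ID (4.21 and 4.63%).

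The 10 most frequent clonotypes held 5.78 and 9.54% of subsampled cells in CON and 4.64 and 3.99% in KO. The difference was -3.34 points, -1.46 without CON replicate 2 and -5.22 without CON replicate 1 (exact permutation p = 0.333). The chance that 2 randomly drawn paired cells shared a clonotype was 0.0530 and 0.111% in CON and 0.0116 and 0.00851% in KO. That difference was -0.0720 points and -0.0429 without CON replicate 2 (exact permutation p = 0.333). Both measures were higher in the CON libraries than in the KO libraries, with no overlap. Among the 6 relabelings of 2 against 2 libraries, a share of 0.333 separates the groups wholly. A lack of overlap, here and below, therefore says little by itself.

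Few expanded clonotypes had the iNKT-type alpha chain, 0 of 5 and 4 of 27 in CON and 2 of 8 and 0 of 4 in KO. Of all clonotypes 137 of 437 and 152 of 546 in CON and 122 of 407 and 115 of 371 in KO had it, and the difference from these shares was not tested. In 261 cells without that chain, the number in the smallest library, 249 and 235 distinct clonotypes would be seen in CON and 255 and 256 in KO. In 115 iNKT-type cells the numbers were 115 and 111 in CON and 113 and 115 in KO, so nearly every iNKT-type cell had its own beta chain. The cells with other alpha chains held fewer distinct clonotypes in the CON libraries, by the largest margin in replicate 2.

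Clonotypes were almost wholly private to a library. No pair of chains was shared, by nucleotides, between any of the 4 libraries. TRB chains identical in V, J and CDR3 amino acids numbered 1 between the CON libraries, 2 between the KO libraries and 0 to 2 between a CON and a KO library, out of 453 to 651 in each library. No TRB amino acid clonotype was found in all 4.

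The V-J pairings of the 2 genotypes did not differ past the threshold. Of 90 pairings with at least 10 cells over the 4 libraries, edgeR's quasi-likelihood test on cell counts called 0 at an adjusted p of 0.05 (0%), DESeq2 called 0, and 2 (2.22%) had an unadjusted edgeR p under 0.05. These 2 were TRBV1 TRBJ2-4 and TRAV9-1 TRAJ22, both with fewer cells in KO. Fold changes are from edgeR and are those of shares of the cells with the chain in question. DESeq2 scaled the libraries otherwise, by its own size factors.

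TRBV1 (chromosome 6, 40891296 to 40891885, GRCm38), a V segment also used by iNKT cells, was joined to TRBJ2-4 (chromosome 6, 41543362 to 41543410) in 8 and 9 CON cells and in 0 and 1 KO cells. The 17 CON cells were 17 different clonotypes. In CON 1.29% ± 0.0978 of TRB cells had this pairing, against 0.108% ± 0.153 in KO (mean ± SD, 2 libraries each), with no overlap between groups. On the log2 scale the fold change was -3.44 ± 1.20 (SE), with an edgeR adjusted p = 0.975. The SE of a fold change, here and below, was derived as its absolute value over the square root of the F statistic. It is approximate, above all where a group has almost no cells. The fold change was -2.47 without KO replicate 1 and -6.03 without KO replicate 2. No KO cell was left in the latter fit, so the method and not the counts sets the size of that value. TRBV1 joined to the neighbouring TRBJ2-5 (chromosome 6, 41543453 to 41543501) was found in 6 and 4 CON cells against 0 and 1 KO cells. Its log2 fold change was -2.71 ± 1.26 (edgeR adjusted p = 0.975), -1.74 without KO replicate 1 and -5.31 without KO replicate 2. The last value again comes from a fit with no KO cell. Other TRBV1 pairings had higher shares in both KO libraries, with log2 fold changes of 0.74 for TRBJ2-7, 0.81 for TRBJ1-1, 1.13 for TRBJ2-1 and 0.93 for TRBJ1-5. None of these TRBV1 pairings passed the threshold, and TRBV1 as a whole had a log2 fold change of 0.26 with overlapping groups.

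Among the other pairings with the smallest p, 3 rested on clones printed above. TRAV9-1 TRAJ22 was in 1 and 16 CON cells and 0 and 0 KO cells, but the 16 cells were 2 clonotypes. Against a limit of 3 cells over the KO group, with cells pooled and taken as independent, its share was at least 4.26-fold lower in KO. TRBV26 TRBJ1-2, the beta pairing of the same clone, was in 0 and 17 CON cells (3 clonotypes) and no KO cell, at least 4.34-fold lower by the same limit, with overlapping groups. TRAV5-4 TRAJ5 was in 10 and 0 CON cells, all of 1 clonotype, and no KO cell, at least 2.5046-fold lower, again with overlap. These folds describe mostly a single clone of a single library each and set no bound on a difference between the genotypes. Without CON replicate 1, TRAV9-1 TRAJ22 and TRBV26 TRBJ1-2 had log2 fold changes of -6.64 and -6.76. With no KO cell, the method and not the counts sets the size of both. In that fit the lone CON library is taken to vary like the KO libraries. Without CON replicate 2 only 1 and 0 cells of these pairings were left, too few for the test.

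The remaining 3 of the 8 smallest p belonged to beta pairings with TRBJ2-7 (chromosome 6, 41543810 to 41543856), the J segment of the most frequent TRB pairing in every library. TRBV13-1 TRBJ2-7 was in 20 and 18 CON cells and 11 and 7 KO cells, 2.93% ± 0.678 against 1.76% ± 0.343 of TRB cells (SD, n = 2), a log2 fold change of -0.71 ± 0.37. TRBV13-3 TRBJ2-7 was in 5 and 12 CON cells and 8 and 19 KO cells, a log2 fold change of 1.10 ± 0.58 with overlapping groups. TRBJ2-7 with the deposited joint name TRBV12-2+TRBV13-2 was in 23 and 23 CON cells and 30 and 21 KO cells, 3.52% ± 0.558 against 5.000% ± 0.643, with a log2 fold change of 0.51 ± 0.28 and no overlap. The edgeR adjusted p was 0.975 for each. The joint name lists a pair of V segments that also occur under names of their own, and what it stands for was not examined. Without iNKT-type cells the log2 fold change of this last pairing was -0.064.

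Of the other frequent pairings none passed the threshold. TRAV11 TRAJ18, the iNKT-type chain (TRAV11 at chromosome 14, 53519303 to 53519859; TRAJ18 at 54200777 to 54200842), was in 138 and 158 CON cells and 125 and 117 KO cells. It made up 29.8 and 25.7% of TRA cells in CON and 29.6 and 30.2% in KO, so that CON replicate 2 was low and the other 3 libraries lay within 1 point. The log2 fold change was 0.12 ± 0.13 (edgeR adjusted p = 0.975). No other TRA pairing exceeded 2.60% of TRA cells in any library. TRAV12-2 TRAJ22 was in 0 and 9 CON cells and 4 and 1 KO cells, TRAV12-3 TRAJ23 in 1 and 4 against 5 and 0, and TRAV7-2 TRAJ22, too rare for the test, in 2 and 5 against 0 and 1. The joint TRB name with TRBJ2-5, TRBJ1-2, TRBJ2-1 and TRBJ1-1 had log2 fold changes of -0.28, 0.10, 0.35 and -0.01, none past the threshold.

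**Figure D2:**
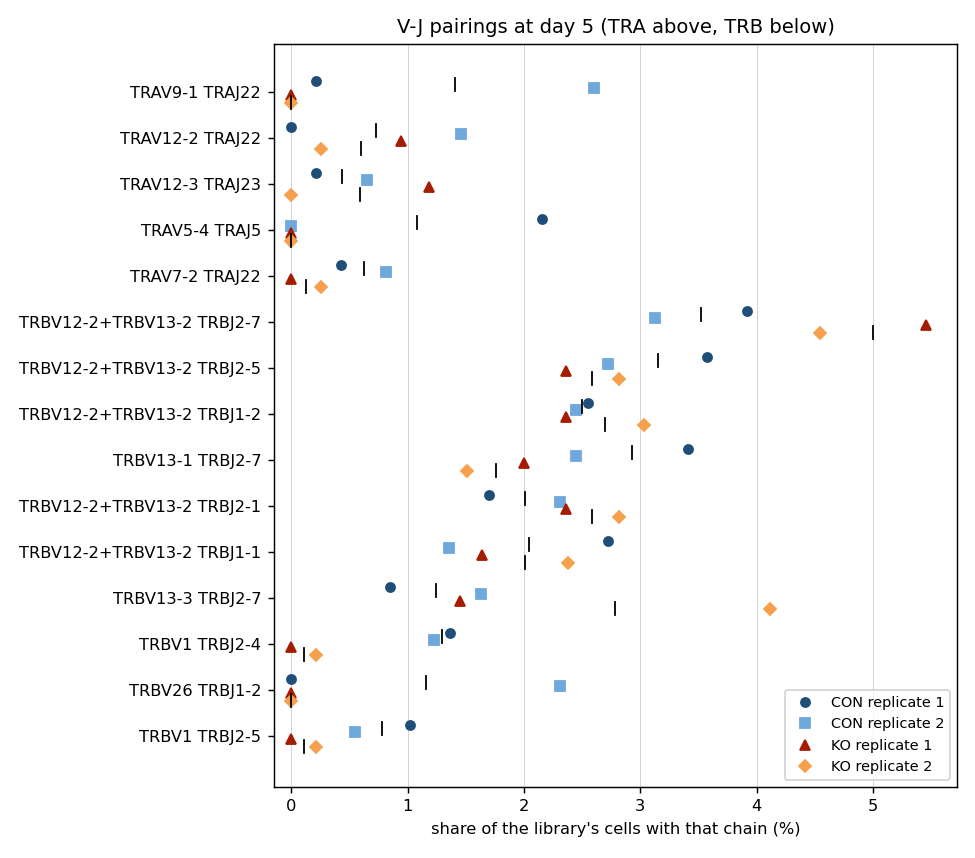
Share of TRA cells (upper 5 pairings) or TRB cells (lower 10) with each named V-J pairing in the 4 day 5 libraries, in percent, with black ticks at the group means. TRAV11 TRAJ18, at 25.7 to 30.2%, is left out for scale. For TRAV9-1 TRAJ22, TRAV5-4 TRAJ5 and TRBV26 TRBJ1-2 a single CON library lies far from the other 3, while for TRBV1 TRBJ2-4 both CON libraries lie above both KO libraries.

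The number of different pairings was compared at a common depth. In 271 cells without the iNKT-type chain, the number in the smallest library, 224 and 216 different TRA V-J pairings would be seen in CON and 230 and 235 in KO. In 462 TRB cells there were 164 and 164 TRB V-J pairings in CON and 159 and 167 in KO. In 261 paired cells without the iNKT-type chain, 205 and 194 alpha-beta V pairings were expected in CON and 207 and 198 in KO. The TRA counts did not overlap between groups and the other 2 did.

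Of single V and J segments, 1 of 109 tested passed (0.917%), TRAJ5, with a lower share in KO. DESeq2 called 0, and 7 (6.42%) had an unadjusted edgeR p under 0.05. TRAJ5 (chromosome 14, 54213777 to 54213838), a J segment near the far end of the alpha locus that is reached in late rearrangements, was in 12 and 7 CON cells and 1 and 0 KO cells. It made up 2.59 and 1.14% of TRA cells in CON and 0.237 and 0% in KO. On the log2 scale its fold change was -3.58 ± 0.98 (SE), with an edgeR adjusted p = 0.0371, against a median of 0.03 over all segments.

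The TRAJ5 cells were few clones. There were 3 and 4 clonotypes in CON and 1 and 0 in KO, and the large clone of CON replicate 1 made up 10 of its 12 TRAJ5 cells. With each clonotype counted once, or without CON replicate 1, too few cells were left for the test. The call was lost with TMM factors (edgeR adjusted p = 0.180), in DESeq2 (adjusted p = 0.959) and without either KO library. The log2 fold change was -6.13 without KO replicate 1 and -2.78 without KO replicate 2. No KO cell was left in the former fit, so the method and not the counts sets the size of that value. The call held without CON replicate 2 (log2 fold change -4.10), but there 10 of the 12 CON cells were the large clone. That fit also takes the lone CON library to vary like the KO libraries.

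The other segments with the smallest p did not pass. TRAJ40 was in 6 and 8 CON cells and 15 and 10 KO cells, and TRAJ33 in 6 and 8 against 10 and 11. Both shares were higher in both KO libraries, with log2 fold changes of 1.23 ± 0.43 (edgeR adjusted p = 0.346) and 0.98 ± 0.43 (edgeR adjusted p = 0.633). TRAV9-1, TRBV17 and TRBV26, the V segments of the largest clones of CON replicate 2, had log2 fold changes of -1.29, -1.02 and -0.97, and of -0.43, -0.39 and -0.20 without that library. TRAV17, the V segment of 8 and 6 CON cells and 2 and 0 KO cells, had one of -2.28 ± 1.08. TRBV13-3 was in 24 and 38 CON cells and 29 and 46 KO cells (0.68 ± 0.35), with 9.96% of TRB cells in KO replicate 2 against 4.09 to 5.27% in the other 3.

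The segments were also grouped by their place in the loci. The V-distal J alpha segments (TRAJ2 to TRAJ18), joined in late rearrangements, had 1 member that fell (TRAJ5) and 11 that did not pass, among them TRAJ6 (-1.04), TRAJ9 (0.49) and TRAJ12 (0.48), with a median log2 fold change of 0.16. They made up 46.7 and 43.4% of TRA cells in CON and 46.2 and 47.2% in KO. None of the 14 tested V-proximal J alpha segments (TRAJ40 to TRAJ58), joined in early rearrangements, passed, with TRAJ53 at -1.63, TRAJ40 at 1.23 and TRAJ57 at -1.23 and a median of -0.17. In TRA cells without the iNKT-type chain, the V-distal group held 24.0 and 23.9% in CON and 23.6 and 24.4% in KO. The J-proximal V alpha segments TRAV17 (-2.28) and TRAV19 (-1.35) did not pass. Their list summed to 3.24 and 2.60% of TRA cells in CON and 1.18 and 1.29% in KO, without overlap. The J-distal V alpha list had 1 tested member, TRAV1 (-0.38).

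None of the 6 tested members of either TRBJ cluster passed, and the TRBJ1 cluster held 33.6 and 37.7% of TRB cells in CON and 35.1 and 33.8% in KO. Its members of largest change were TRBJ1-6 (0.30) and TRBJ1-5 (0.26), and those of the TRBJ2 cluster were TRBJ2-2 (0.19) and TRBJ2-7 (0.13). Neither Vbeta5 segment passed (TRBV12-2 at 0.44, TRBV12-1 at 0.09). The TRBJ1 and TRBJ2 lists had median log2 fold changes of -0.00372 and -0.02, and the Vbeta5 list 0.27.

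Of 13 alpha-beta V pairings tested, edgeR called 0 (0%), DESeq2 called 0, and 2 (15.4%) had an unadjusted edgeR p under 0.05. Both were pairings of the iNKT-type V segment TRAV11, one lower and one higher in KO. TRBV29 (chromosome 6, 41271403 to 41271881) is a usual beta partner in iNKT cells. RefSeq's table for this build lists it as a V segment pseudogene, whereas the deposited contigs include productive TRBV29 chains. TRAV11 with TRBV29 was in 20 and 23 CON cells and 9 and 7 KO cells, each a clonotype of its own. It made up 4.104% ± 0.454 of paired cells in CON against 2.01% ± 0.213 in KO (SD, n = 2), with no overlap. The log2 fold change was -1.01 ± 0.47 (edgeR adjusted p = 0.303), and with TMM factors it was -1.26 ± 0.39 and passed (edgeR adjusted p = 0.0418). Those factors were estimated from the 13 tested pairings alone and move all pairings of a library together, so this call rests on the scaling.

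TRAV11 with the joint TRBV12-2+TRBV13-2 name was in 65 and 76 CON cells and 69 and 65 KO cells. It made up 13.4% ± 1.33 of paired cells in CON against 16.9% ± 0.495 in KO (SD, n = 2), again with no overlap. The log2 fold change was 0.35 ± 0.16 (edgeR adjusted p = 0.303), and 0.08 with TMM factors. The other TRAV11 partners were TRBV1 (0.49), TRBV13-3 (0.64), TRBV13-2 (-0.66) and TRBV13-1 (0.04), none past the threshold. Of conventional pairings, TRAV9-1 TRBV26 was in 0 and 16 CON cells and 1 and 1 KO cells, TRAV8-2 TRBV17 in 0 and 10 against 0 and 0, TRAV5-4 TRBV19 in 11 and 1 against 1 and 2, and TRAV12-2 TRBV3 in 1 and 10 against 2 and 0. Each is the pairing of a clone printed above, and none passed.

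Within paired iNKT-type cells the beta chains followed the same order. TRBV29 was used by 14.6 and 14.6% in CON and by 7.26 and 6.09% in KO, and the joint name by 47.4 and 47.5% in CON and 54.8 and 56.5% in KO. The Wilson intervals of TRBV29 (9.65 to 21.5 and 9.90 to 20.9% in CON, 3.87 to 13.2 and 2.98 to 12.03% in KO) overlapped. Among other paired cells TRBV29 was used by 3.49 and 3.56% in CON and 2.74 and 3.45% in KO, and the joint name by 8.57 and 8.67% in CON and 7.88 and 6.51% in KO. Whether the change differs between the cell classes was not tested.

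TRBV13-1, TRBV13-2 and TRBV13-3 form the Vbeta8 family, while the joint name covers TRBV13-2 together with TRBV12-2, a Vbeta5 segment. The name does not say which is present, and the CDR3 nucleotides were not used to tell them apart. These 3 segments and the joint name together made up 70.1 and 74.7% of paired iNKT-type cells in CON and 83.9 and 75.7% in KO. The difference was 7.38 points (exact permutation p = 0.333, adjusted p = 0.944), 3.27 without KO replicate 1 and 11.5 without KO replicate 2. TRBV13-1 and TRBV1 varied within groups, with TRBV1 at 4.03% in KO replicate 1 and 13.04% in KO replicate 2. Among iNKT-type beta chains TRBJ2-7 was used by 16.1 and 15.8% in CON and 26.6 and 20.9% in KO. TRBJ2-4 was used by 8.76 and 8.86% in CON and 1.61 and 9.57% in KO, so that only KO replicate 1 stood apart. As a list, none of the 6 iNKT V beta segments passed over all TRB cells, with a median log2 fold change of 0.13.

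**Figure D3:**
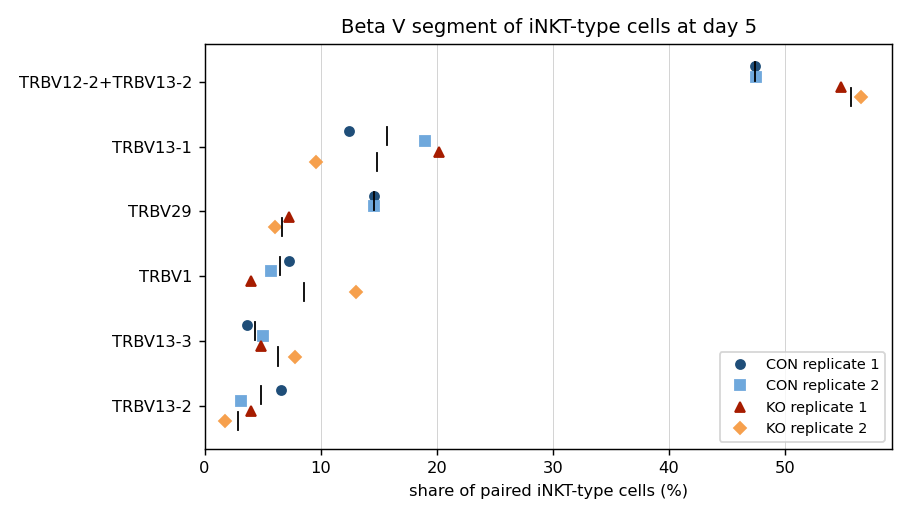
Share of paired iNKT-type cells that used each of the 6 most frequent beta V names, in percent, in the 4 day 5 libraries, with black ticks at the group means. The CON libraries lie together at 14.6% for TRBV29, above both KO libraries, and at 47.4 and 47.5% for the joint name, below both, while for TRBV13-1 and TRBV1 the KO libraries lie on either side of the CON libraries.

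The invariant alpha chain itself is shown because cells with the same protein chain can be encoded by different nucleotides at the V-J junction, which mark separate rearrangements. The 4 most frequent versions differ at codon 4 of the CDR3, and capitals mark bases 10 to 15.
Version 1: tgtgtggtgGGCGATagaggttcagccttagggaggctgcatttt
Version 2: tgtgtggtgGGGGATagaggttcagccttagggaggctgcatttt
Version 3: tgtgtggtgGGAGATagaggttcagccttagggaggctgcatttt
Version 4: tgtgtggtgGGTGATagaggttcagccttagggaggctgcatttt

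These 4 versions encode the same residues. Version 1 was carried by 39.9 and 39.2% of iNKT-type cells in CON and 33.6 and 34.2% in KO, and version 2 by 19.6 and 26.6% against 24.8 and 35.0%. Version 3 was carried by 18.1 and 18.99% in CON and 23.2 and 12.8% in KO, and version 4 by 10.9 and 10.8% against 11.2 and 11.1%. Versions 1 and 4 did not overlap between the groups, version 4 only narrowly, and these shares were not tested. In all, 16 versions were seen. The most frequent protein chain was found in 91.3 and 96.2% of iNKT-type cells in CON and 93.6 and 96.6% in KO, and every iNKT-type alpha CDR3 had 15 residues.

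CDR3 lengths did not differ past the threshold. Of 17 combinations of chain and length tested, edgeR called 0 (0%), DESeq2 called 0, and 0 had an unadjusted edgeR p under 0.05. The smallest p belonged to TRB chains of 17 residues, in 19 and 20 CON cells and 7 and 11 KO cells (log2 fold change -0.72 ± 0.42), of 11 residues (0.32 ± 0.29) and of 18 residues (0.62 ± 0.80), and to TRA chains of 12 residues (-0.26 ± 0.23), with an edgeR adjusted p of 0.981 for each. TRA chains of 11 residues varied within KO, with 3 cells (0.711% of TRA cells) in replicate 1 and 21 (5.41%) in replicate 2, which were 18 clonotypes.

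Averaged over clonotypes, the TRA CDR3 had 14.02 and 14.03 residues in CON and 14.15 and 13.95 in KO, and the TRB CDR3 had 14.06 and 13.96 in CON and 13.90 and 14.03 in KO. The differences of 0.0284 and -0.0447 residues lay within the spread between libraries (exact permutation p = 1 and 0.667). Beta chains of iNKT-type cells averaged 13.8 residues in KO replicate 1 and 14.3, 14.4 and 14.2 in the CON libraries and KO replicate 2. In KO replicate 1 17.7% of them had 12 residues, against 5.11 and 3.16% in CON and 8.70% in KO replicate 2.

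**Figure D4:**
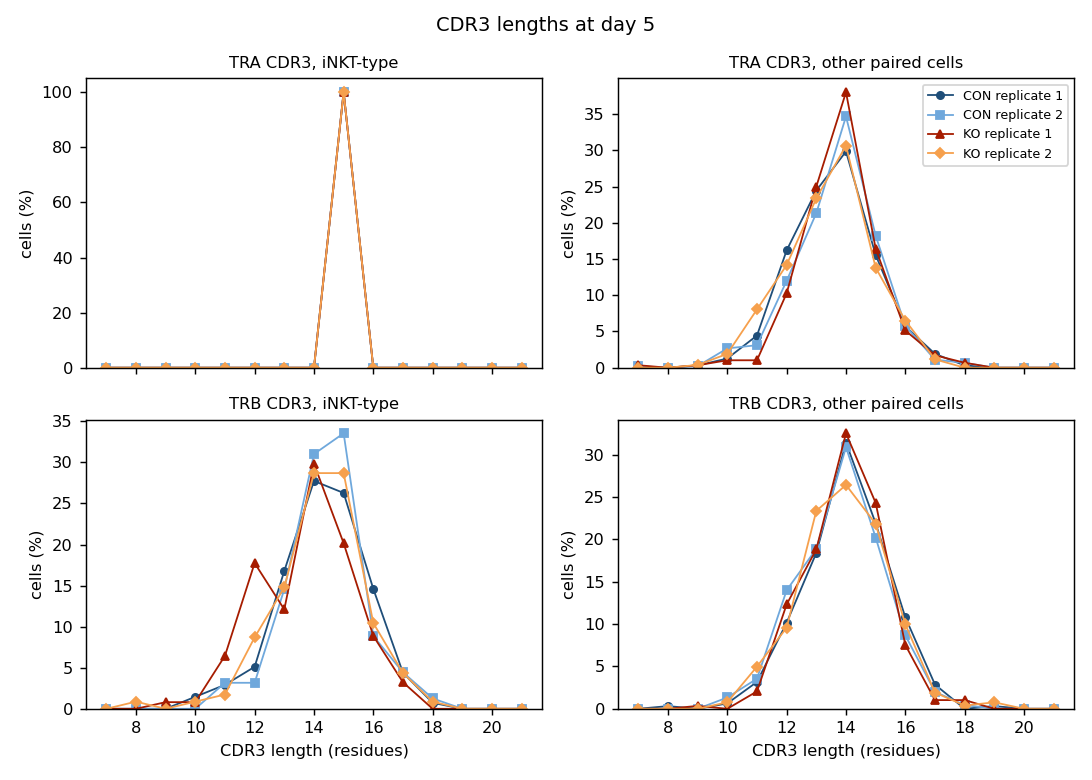
Distribution of CDR3 length in residues for TRA (upper row) and TRB (lower row), as percent of the iNKT-type cells (left) and of other paired cells (right) of each day 5 library. All iNKT-type alpha chains have 15 residues, and the beta chains of iNKT-type cells in KO replicate 1 show a second maximum at 12 residues, with 17.7% of cells.

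The middle of the TRB CDR3, without the 4 residues at either end, had a mean Kyte-Doolittle hydropathy of -1.23 and -1.12 in CON and -1.18 and -1.17 in KO, where lower values are more polar. Its net charge averaged -0.574 and -0.570 in CON and -0.590 and -0.534 in KO. Both differences, -0.000593 and 0.0103, were within the spread between libraries (exact permutation p = 1 for each). Glycine made up 22.7 and 23.5% of these residues in CON and 22.6 and 23.4% in KO.

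The shares of cells with a second chain overlapped between the groups. Such chains arise because the alpha locus can rearrange on both chromosomes, whereas a second productive beta chain is rarer and can also mark a droplet that held 2 cells. Cells with 2 productive TRA chains made up 7.74 and 7.07% of paired cells in CON and 5.77 and 8.51% in KO, a difference of -0.268 points (exact permutation p = 1). They were rare where the first chain was of the iNKT type, with 2 and 1 cells in CON and 1 and 0 in KO, against 10.5 and 9.33% of other paired cells in CON and 7.88 and 12.3% in KO. The iNKT-type chain was the second TRA chain of 3 and 5 CON cells and 2 and 4 KO cells. Cells with 2 or more productive TRB chains made up 2.56 and 3.40% of TRB cells in CON and 3.82 and 3.03% in KO (difference 0.446 points, exact permutation p = 0.667). The difference was 0.0229 without CON replicate 1, 0.869 without CON replicate 2, 0.0519 without KO replicate 1, 0.840 without KO replicate 2 and 0.944 without iNKT-type cells. In cells thinned to 8 TRB UMIs, which left out shallower cells and kept 359 and 546 in CON and 310 and 290 in KO, the shares were 4.18 and 4.40% in CON and 6.13 and 4.83% in KO and no longer overlapped.

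Any contig not marked productive was counted as non-productive, and whether it stems from a failed rearrangement on the other chromosome was not tested. A non-productive TRB contig was found in 8.70 and 10.2% of cells in CON and 11.2 and 11.4% in KO. The groups did not overlap, with a difference of 1.803 points (exact permutation p = 0.333, adjusted p = 0.944), 1.03 without CON replicate 1. A non-productive TRA contig was found in 25.6 and 30.7% in CON and 27.9 and 29.1% in KO (difference 0.339 points, exact permutation p = 1). A TRB chain with no TRA chain was found in 23.0 and 17.3% of TRB cells in CON and 24.4 and 18.6% in KO (difference 1.35 points, exact permutation p = 0.667). In both groups replicate 1 was the higher library. Among these cells the joint TRBV12-2+TRBV13-2 name was used by 20.7 and 19.7% in CON and 25.4 and 30.2% in KO, a difference that was not tested.

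The median TRB chain had 10 and 12 UMIs in CON and 8.5 and 9 in KO, without overlap (difference -2.25, exact permutation p = 0.333, adjusted p = 0.944). The difference was -1.25 without CON replicate 2. The groups met at 9 UMIs without possible doublets (9 and 12 against 8 and 9) and without iNKT-type cells (9 and 11 against 8 and 9). The median TRA chain had 4 and 4 UMIs in CON and 3 and 4 in KO (difference -0.5, exact permutation p = 1). The mean log2 ratio of TRB to TRA UMIs in paired cells was 1.40 and 1.54 in CON and 1.46 and 1.22 in KO, with overlap. UMIs count the captured transcripts of a cell, so depth of the library and receptor RNA per cell cannot be told apart in these values. TRB cells with no TRA chain had median TRB UMIs of 8 and 10 in CON and 5 and 7 in KO, against 10 and 13 in CON and 10 and 10 in KO for those with one.

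**Figure D5:**
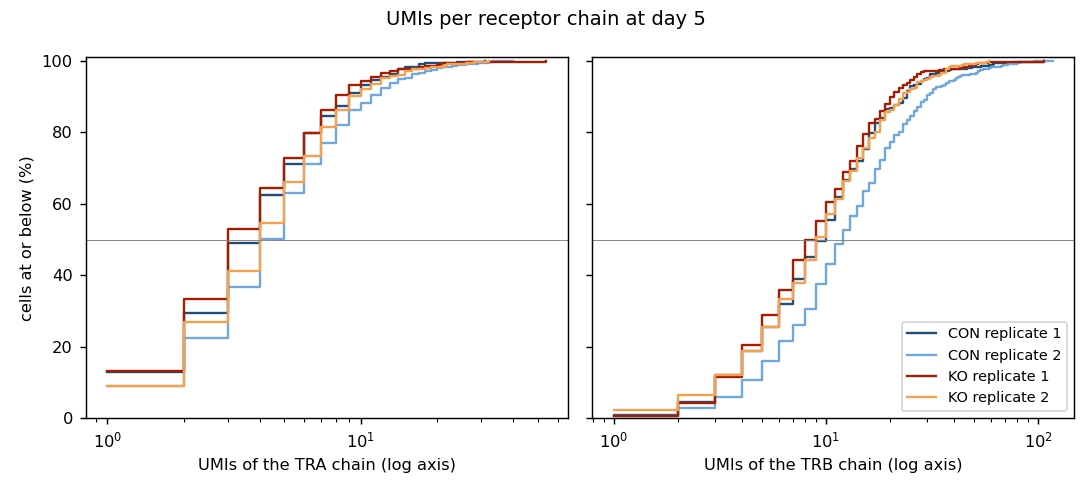
Cumulative percent of cells at or below each number of UMIs (log axis) for the TRA chain (left) and the TRB chain (right) in the 4 day 5 libraries, with a grey line at 50%. CON replicate 2 lies to the right of the other 3 for TRB, with a median of 12 UMIs, and the other medians are 10, 8.5 and 9.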

How the data were processed

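The 4 receptor libraries of day 5 were analysed (2 CON, 2 KO, grouped by the genotype and time point in the labels). The deposited tables list contigs with whole-number counts of UMIs and of reads, which the file headers give without normalization. The length of a contig was among the other deposited values and was not compared. The submitters' processing notes name CASAVA 1.8, Cell Ranger 3.1.0, R 4.1.2, Seurat 4.0.0 and the build GRCm38 (mm10), with no role for each. All read numbers were even, so reads served only to break ties of UMIs (2 to 10 cells a library).

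Each cell was represented by its TRA and its TRB chain of highest UMI count. TRAV names of duplicated copies were merged (88 names to 47). Possible doublets (2 or more TRB or 3 or more TRA chains), 2.51 to 3.78% of cells, were kept except in an alternative. Positions and biotypes came from RefSeq genes (GRCm38.p6), which matched 116 of 124 segments. Cell counts per feature, with the library's number of TRA, TRB or paired cells as offset, were tested in the 4 libraries with edgeR 4.0.16 (R 4.3.3, quasi-likelihood F test). An alternative used DESeq2 1.42.0 without this offset. It scaled each library by size factors from the counts of the table, so it differs in scaling as well as in test. Features with 10 or more cells were tested, with Benjamini-Hochberg adjustment over each table and a threshold of 0.05. The test was run first on simulated counts with known changes. These had 1 fixed spread and no expanded clones, so they do not cover features carried by a clone. Other measures were compared with exact two-sided permutation tests over 6 relabelings. Clone shares were means of 1000 subsamples. Distinct numbers at a common depth are expected values. Wilson intervals (95%) and limits of a 0 (3 counts) cover counting error only.

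Named were the features past the threshold or with the 8 smallest p (4 for CDR3 lengths), the 12 most frequent V-J pairings (6 TRA, 6 TRB), the 8 most frequent alpha-beta pairings, clonotypes of 5 or more cells and the most frequent of each library, and of each segment list its tested members of largest change. The TRA CDR3 length of 11 residues, the TRBV1 pairings with higher shares in KO, the beta chains by cell class and the contigs with no J segment lie outside this rule and were chosen after their values were seen. The comparison, members and lists were chosen with earlier results of these data known.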

Additional observations from a re-analysis of the deposited data

How the results depend on the processing

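With 2 libraries a side the exact tests cannot reach 0.05, and small cell counts per feature limit the count tests. TRAJ5 was 1 of 109 segments called. The number called was 0 with DESeq2, TMM factors, a minimum of 20 cells, each clonotype counted once, chains of 2 or more UMIs, no possible doublets, no iNKT-type cells, all 8 libraries in the fit or the replicate block, and 0 to 1 over the libraries left out. It was 1 with no filter on low counts, with TRAV copies apart and with the joint name as TRBV13-2. V-J pairings had 0 calls, 1 with the replicate block (TRAV5-4 TRAJ5, log2 fold change -5.37, edgeR adjusted p = 0.0287) and 0 to 2 over the libraries left out. The fold change of TRAV5-4 TRAJ5 has its size set by the method, as no KO cell had this pairing. Alpha-beta pairings had 0 calls, and 1 with TMM factors, which were estimated from the tested pairings alone. The labels give no link between same-numbered libraries of the groups beyond the number, so the block is a check and not a pairing. Their deviations correlated at -0.0275 over 90 V-J pairings and 0.0355 over 109 segments. With small cell counts per feature, these values cannot show whether such libraries share a batch. TRA chains of 1 UMI were more frequent in replicate 1 of both groups (12.96 and 8.94% in CON, 13.27 and 9.02% in KO). TRB chains of 1 UMI showed no such order (0.852 and 0.544% in CON, 0.727 and 2.16% in KO). A shared batch was not tested. Under the block TRAJ5 had a log2 fold change of -3.69 (edgeR adjusted p = 0.187).

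Some directions turned, and the cause was not tested. Over the libraries left out, the KO minus CON difference ranged from -0.0747 to 0.132 residues for TRA CDR3 length, from -0.111 to 0.0218 for TRB CDR3 length, from -0.0523 to 0.0511 for hydropathy, from -0.0177 to 0.0383 for net charge, from -1.64 to 1.10 points for 2 TRA chains, from -1.52 to 4.23 for TRB with no TRA chain, and from -2.23 to 2.91 for non-productive TRA contigs. With chains of 2 or more UMIs, TRA length differed by -0.0298, hydropathy by 0.0131 and charge by -0.0117. Without iNKT-type cells TRB length differed by 0.0819, hydropathy by 0.0401, and 2 TRA chains by 0.164. Hydropathy differed by 0.00385 without possible doublets and by 0.00372 averaged over cells. The share with 2 TRA chains differed by 0.923 after thinning to 4 TRA UMIs, and TRB with no TRA chain by -2.75 in cells of 8 or more TRB UMIs. The log2 fold change of TRAV11 TRBV1 lay between -0.60 and 1.11 when 1 library was left out, and that of the joint name with TRBJ2-7 was -0.064 without iNKT-type cells.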

Other observations

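Barcodes that were not called cells carried a large number of TRBV26 contigs with no J segment. These contigs were found in 1274 of 1736 such barcodes in CON replicate 1 (73.4%), 1124 of 1815 in CON replicate 2 (61.9%), 828 of 1331 in KO replicate 1 (62.2%) and 1733 of 2074 in KO replicate 2 (83.6%). None of the 598, 742, 556 and 474 cells had one. Their median UMIs were 9 and 9 in CON and 7 and 10 in KO. The TRBV26 cells compared above have a J segment and a CDR3 and are separate from these contigs.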
